A study of Mus musculus with 20 samples.

Results

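The genes described here are 10 stress-inducible genes of the mouse small intestine, 8 of them immediate early genes and 2 of them heat shock genes. They were taken by symbol from a list (Fos, Fosb, Jun, Junb, Egr1, Atf3, Ier2, Dusp1, Hspa1a and Hspa1b) and are 10 of the 55487 genes in the deposited count table. All 10 were among the 17464 genes expressed highly enough to be tested. Small intestine was taken from pups of dams with periodontitis or of control dams, and bulk RNA-seq was done on polyA RNA. The 20 libraries form 4 groups of 5: offspring of dams with periodontitis at 7 weeks, control offspring at 7 weeks, offspring of dams with periodontitis at 2 weeks, and control offspring at 2 weeks. "Periodontitis pups" below are the offspring of the affected dams. The labels give no strain, litter, sex, intestinal segment or number of animals per library, nor how periodontitis was brought about, so p-values measure the spread between these libraries.

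Immediate early genes are switched on within minutes of a signal, without new protein synthesis, when kinase cascades activate transcription factors already bound at their promoters. Their transcripts decay quickly, so that they are also known to respond to handling of tissue and to cell dissociation. FOS and FOSB pair with JUN or JUNB to form the AP-1 transcription factor, ATF3 belongs to the related CREB/ATF family, and EGR1 is a zinc finger transcription factor. IER2 is a small nuclear protein, and DUSP1 is a phosphatase that turns off MAP kinases. HSPA1A and HSPA1B are the inducible Hsp70 chaperones, which hold unfolded proteins and are transcribed under heat shock factor 1. In the intestine, AP-1 genes are expressed in epithelium as well as in the underlying tissue.

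Promoter sequences are shown for Fos and Dusp1, a pair whose levels followed each other at both ages, and for Hspa1a and Hspa1b, which are nearly identical in this stretch. Each is the 250 bases before the start in RefSeq, on build GRCm38.p6. The set of RefSeq promoters used here held an entry for 8 of the 10 genes, without Egr1 and Ier2. The Fos window is chr12:85473640-85473889 (plus strand), with the letters TGACG, the core of the CREB/ATF site, and TATAAA in capitals. The Dusp1 window is chr17:26508473-26508722 (minus strand), with TGACG and the full palindrome TGACGTCA in capitals. Those of Hspa1a and Hspa1b are chr17:34972157-34972406 and chr17:34959239-34959488 (both minus strand), with a match to the heat shock pattern GAANNTTC in capitals.
Fos: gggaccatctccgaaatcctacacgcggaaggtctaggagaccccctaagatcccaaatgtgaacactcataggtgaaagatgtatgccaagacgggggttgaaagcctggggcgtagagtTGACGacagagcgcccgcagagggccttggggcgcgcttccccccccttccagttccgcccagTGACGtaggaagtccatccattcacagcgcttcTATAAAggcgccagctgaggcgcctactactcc
Dusp1: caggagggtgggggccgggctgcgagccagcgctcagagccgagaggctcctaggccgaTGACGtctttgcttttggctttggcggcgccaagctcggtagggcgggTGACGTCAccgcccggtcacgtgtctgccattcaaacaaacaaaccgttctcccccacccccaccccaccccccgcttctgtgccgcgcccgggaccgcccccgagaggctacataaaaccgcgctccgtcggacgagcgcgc
Hspa1a: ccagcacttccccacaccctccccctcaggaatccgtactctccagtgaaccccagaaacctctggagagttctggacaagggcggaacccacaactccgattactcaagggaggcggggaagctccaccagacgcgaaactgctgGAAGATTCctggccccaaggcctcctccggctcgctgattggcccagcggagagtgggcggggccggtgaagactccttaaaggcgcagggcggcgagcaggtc
Hspa1b: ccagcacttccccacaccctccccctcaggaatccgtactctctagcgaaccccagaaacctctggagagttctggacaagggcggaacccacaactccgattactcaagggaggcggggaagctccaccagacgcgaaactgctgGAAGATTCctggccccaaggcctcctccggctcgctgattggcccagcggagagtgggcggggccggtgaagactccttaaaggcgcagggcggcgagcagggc

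Searched on both strands, TGACG was present in 17.9% of the 27025 RefSeq promoter windows of this length, TGACGTCA in 1.62% and GAANNTTC in 6.78%; TATAAA was in 13% and the CArG box, which serum response factor binds, in 1.4%. Fos had TGACG at -129 and -66 and TATAAA at -33 from its start. Dusp1 had TGACGTCA at -143, which itself holds TGACG on either strand, and a separate TGACG at -191. Fosb and Junb had TGACG at -60 and -106, and Atf3 had it on the reverse strand at -7. Hspa1a and Hspa1b had GAANNTTC at the same position, -104, and CCAAT on the reverse strand at -67 (CCAAT was in 34.5% of windows). Jun also had a match to GAANNTTC, at -128. Junb and Jun had CCAAT at -36 and -65. The CArG box, the AP-1 site TGANTCA (6.87% of windows) and the other heat shock pattern TTCNNGAA (7.1%) were found in none of the 8 windows. A match here is a match of letters only. Sites more than 250 bases upstream, and those of Egr1 and Ier2, were not searched, so the absence of a match holds for these windows only.

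On GRCm38, in the GENCODE annotation, Fos lies on chromosome 12 (85473890 to 85477273, plus strand), Fosb on chromosome 7 (19302696 to 19310051, minus strand) and Jun on chromosome 4 (95049034 to 95052222, minus strand). Junb and Ier2 both lie on the minus strand of chromosome 8, at 84974484 to 84978718 and at 84661331 to 84662852. Egr1 is on chromosome 18 (34859823 to 34864984, plus strand) and Atf3 on chromosome 1 (191170296 to 191218039, minus strand). Dusp1 (26505590 to 26562128), Hspa1b (34956436 to 34959238) and Hspa1a (34969190 to 34972156) are on the minus strand of chromosome 17. The principal transcripts of Jun, Junb, Ier2, Hspa1a and Hspa1b have a single exon. Exons of 4 of the genes overlap exons on the other strand: Hspa1a shares 564 bases with Gm20481, Jun 232 with its antisense RNA Junos, Junb 173 with Prdx2 and Dusp1 11 with Ergic1. Whether the authors' counting used strand is not given in the sources used here, so reads of these stretches may belong to either gene.

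Library totals ran from 14.9 M to 42.6 M counts. A pair of libraries stood apart. Control library 5 at 2 weeks had the total of 14.9 M, with 29.4% of counts mitochondrial (3.99 to 9.15% in the others) and 20080 genes detected. Periodontitis library 5 at 7 weeks had a summed level of 11 epithelial markers of 41137 CPM (counts per M counts of the library), against 90862 to 108531 CPM in the other libraries of its group. Levels below are CPM after TMM scaling, which sets libraries to a common level for the bulk of genes, and results are given without these libraries where that changed a call. All 11 epithelial markers, among them Epcam and Vil1, were detected in each of the 20 libraries.

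Age separated most of the 10 genes. In periodontitis pups 7 of the 10 were higher at 7 weeks than at 2 weeks (edgeR, adjusted p under 0.05 over all genes tested), where 30.4% of all tested genes were called higher, 35.7% lower and 66.1% in either direction. In control pups 8 of the 10 were higher, against 27.1% called higher, 34.4% lower and 61.5% in either direction. The median log2 fold change of the 10 genes was 1.23 in periodontitis and 1.60 in control pups, beside medians of -0.11 and -0.13 over all tested genes. In bulk tissue, fewer cells of a type and less RNA per cell cannot be told apart.

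**Figure D1:**
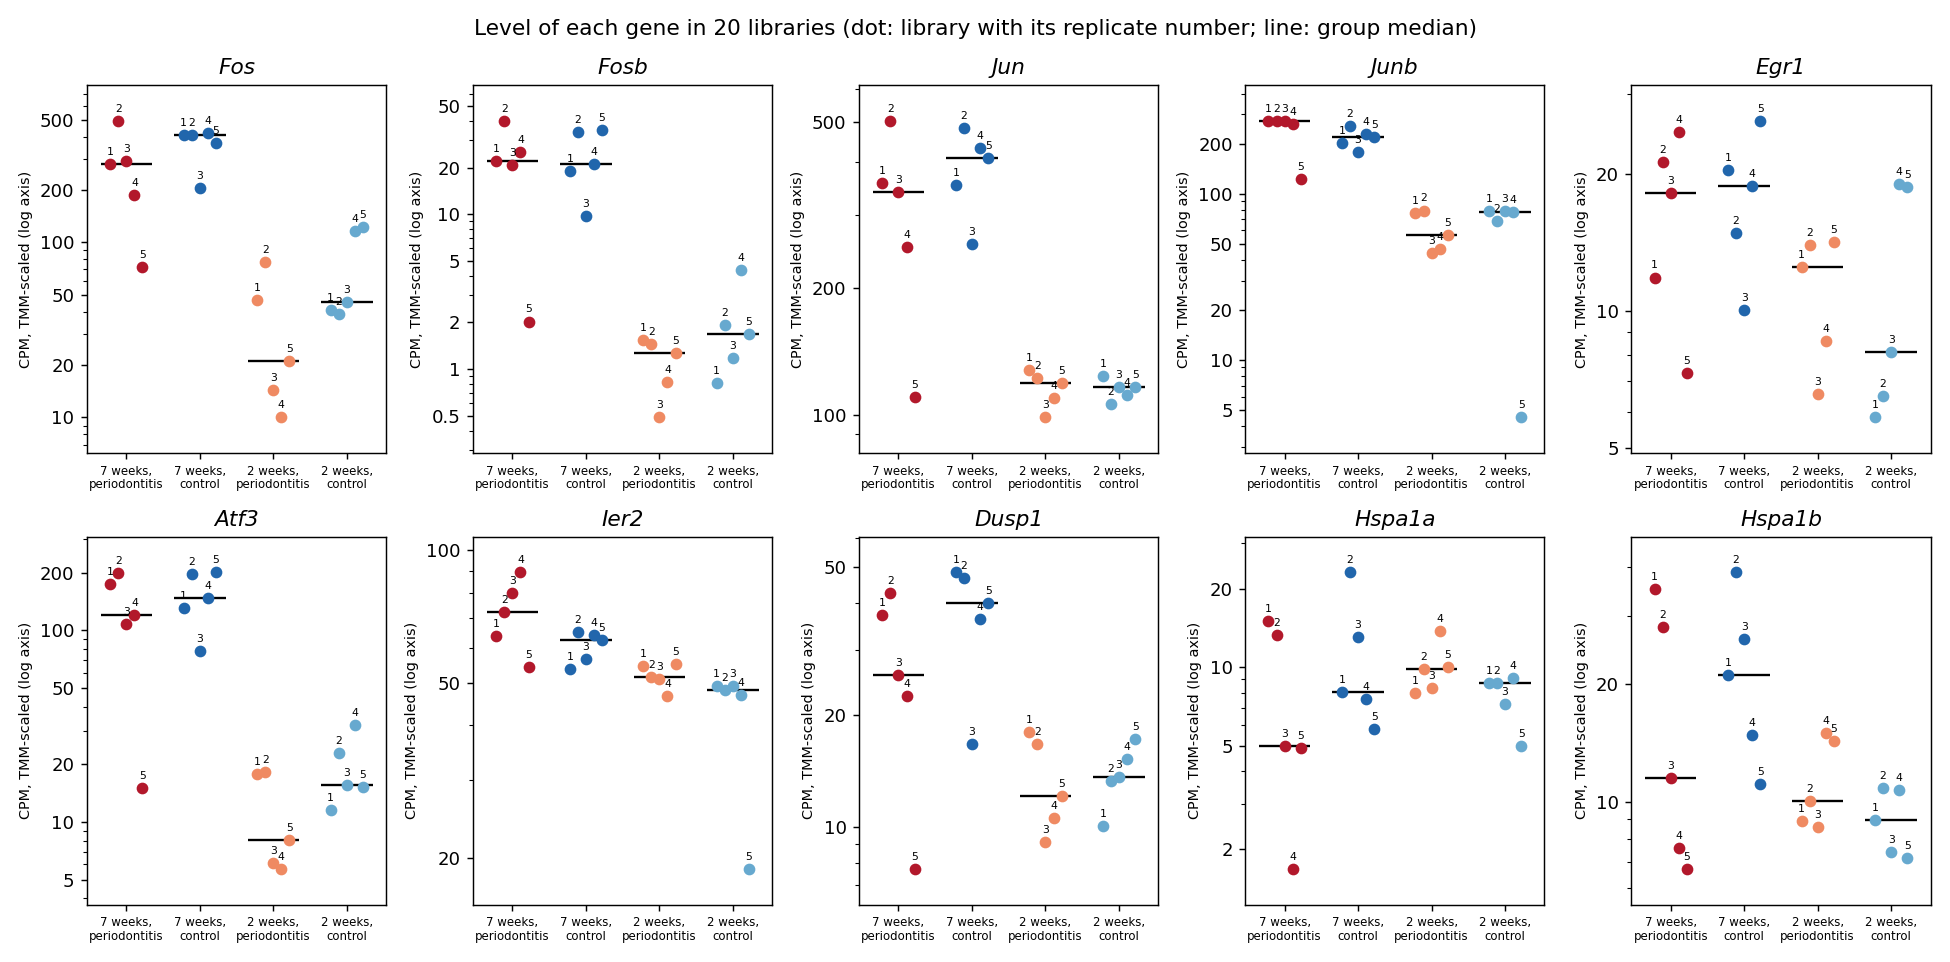
CPM of the 10 genes (log axes) in each library, by group from left to right: 7 weeks periodontitis, 7 weeks control, 2 weeks periodontitis, 2 weeks control (5 libraries each; numbers are replicate numbers, lines are group medians). Fosb lies above 9 CPM in 9 of the 10 libraries of 7 weeks and at most at 4.34 CPM at 2 weeks, while periodontitis library 5 at 7 weeks lies low in most panels and control library 5 at 2 weeks lies lowest for Junb and Ier2.

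Fosb showed the largest difference. It stood at 22.2, 40.3, 20.8, 25.2 and 2.02 CPM in periodontitis libraries 1 to 5 at 7 weeks, against 1.53, 1.45, 0.487, 0.819 and 1.27 CPM in those at 2 weeks. Control libraries 1 to 5 had 19, 33.9, 9.71, 21.1 and 34.9 CPM at 7 weeks, against 0.814, 1.93, 1.18, 4.34 and 1.69 CPM at 2 weeks. The ages did not overlap in either kind of pup, although periodontitis library 5 at 7 weeks lay close to the 2-week range. The log2 fold change was 4.31 ± 0.61 in periodontitis pups and 3.56 ± 0.59 in control pups (SE, n = 5 per group, edgeR adjusted p = 6.74e-06 and 5.08e-05). Groups that did not overlap, with the 7-week level higher, were found for 24.9% of all tested genes in periodontitis pups and 22.5% in control pups. At 2 weeks the low levels rest on 21 to 197 counts per library.

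Atf3, which is induced by many kinds of cell stress, differed by 3.46 ± 0.53 in periodontitis and 2.95 ± 0.52 in control pups (log2 fold change ± SE, n = 5 per group, edgeR adjusted p = 1.39e-05 and 8.01e-05). Its levels were 174, 199, 108, 120 and 15 CPM in periodontitis libraries 1 to 5 at 7 weeks, against 17.8, 18.2, 6.11, 5.68 and 8.09 CPM at 2 weeks. In control libraries they were 130, 198, 77.9, 148 and 201 CPM at 7 weeks, against 11.5, 23, 15.6, 32.2 and 15.1 CPM at 2 weeks. The control ages were thus apart. The periodontitis ages overlapped through library 5 of 7 weeks alone, which lay below periodontitis libraries 1 and 2 of 2 weeks.

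Fos had 279, 496, 293, 187 and 71.9 CPM in periodontitis libraries 1 to 5 at 7 weeks, against 46.9, 77.4, 14.4, 10 and 20.9 CPM at 2 weeks. It had 412, 410, 204, 422 and 369 CPM in control libraries 1 to 5 at 7 weeks, against 41.1, 38.8, 45.7, 116 and 123 CPM at 2 weeks. Control library 3 was the lowest of the control libraries at 7 weeks, and still lay above all of the 2-week control libraries. The log2 fold change was 2.97 ± 0.56 in periodontitis and 2.32 ± 0.54 in control pups (SE, n = 5 per group, edgeR adjusted p = 0.000125 and 0.00113). Its control ages did not overlap, and its periodontitis ages overlapped through library 5 of 7 weeks, below library 2 of 2 weeks.

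Among the Jun genes, Junb had 273, 273, 275, 261 and 122 CPM in periodontitis libraries 1 to 5 at 7 weeks, against 76.6, 79.1, 43.7, 46.4 and 56.1 CPM at 2 weeks. Control libraries 1 to 5 had 203, 255, 177, 228 and 218 CPM at 7 weeks, against 79.1, 68.7, 78.3, 78 and 4.51 CPM at 2 weeks. The ages did not overlap in either kind of pup, and the 4.51 CPM, from 56 counts, belonged to the library with the high mitochondrial share. The log2 fold change was 2.00 ± 0.44 in periodontitis and 1.80 ± 0.44 in control pups (SE, n = 5 per group, edgeR adjusted p = 0.000594 and 0.00153). Without that library the control value was 1.51 (edgeR adjusted p = 1.01e-05).

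Jun was even within the 2-week groups. It stood at 357, 503, 340, 251 and 110 CPM in periodontitis libraries 1 to 5 at 7 weeks, against 98.5 to 128 CPM (median 119) at 2 weeks. In control libraries it stood at 354, 482, 255, 433 and 410 CPM at 7 weeks, against 106 to 124 CPM (median 116) at 2 weeks. Control ages were apart, and periodontitis library 5 of 7 weeks lay inside the 2-week range. The log2 fold change was 1.44 ± 0.26 in periodontitis and 1.75 ± 0.26 in control pups (SE, n = 5 per group, edgeR adjusted p = 9.39e-05 and 1.87e-05).

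Dusp1 was higher at 7 weeks, by 1.03 ± 0.34 in periodontitis and 1.44 ± 0.35 in control pups (log2 fold change ± SE, n = 5 per group, edgeR adjusted p = 0.0127 and 0.00136). Its levels were 37.3, 42.7, 25.7, 22.5 and 7.72 CPM in periodontitis libraries 1 to 5 at 7 weeks, against 18, 16.7, 9.13, 10.6 and 12.1 CPM at 2 weeks. In control libraries they were 48.5, 46.8, 16.8, 36.2 and 40.2 CPM at 7 weeks, against 10.1, 13.3, 13.7, 15.3 and 17.2 CPM at 2 weeks. The ages overlapped in both kinds of pup, through library 5 of the periodontitis pups and library 3 of the control pups at 7 weeks. Without periodontitis library 2 of 7 weeks the periodontitis value was 0.80 and did not pass (edgeR adjusted p = 0.0504).

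Ier2 and Egr1 differed least among the immediate early genes. Ier2 had 63.8, 72.3, 79.8, 89.2 and 54.2 CPM in periodontitis libraries 1 to 5 at 7 weeks, against 46.7 to 55 CPM (median 51.6) at 2 weeks. Control libraries had 53.7, 65.4, 56.5, 64.2 and 62.5 CPM at 7 weeks, against 49.2, 48.1, 49.1, 46.9 and 18.8 CPM at 2 weeks. The small log2 fold changes, 0.47 ± 0.20 in periodontitis and 0.51 ± 0.20 in control pups, passed narrowly (SE, n = 5 per group, edgeR adjusted p = 0.0399 and 0.0303). The call was lost on leaving out any of 8 periodontitis libraries (2, 3 and 4 of 7 weeks and all 5 of 2 weeks; edgeR adjusted p up to 0.108) or control library 2, 4 or 5 of 7 weeks (up to 0.0618). It was also lost in both kinds of pup with no filter on low counts (edgeR adjusted p = 0.134 and 0.08) and in control pups with the 2 groups compared alone (0.111).

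Egr1 had 11.8, 21.2, 18.1, 24.7 and 7.29 CPM in periodontitis libraries 1 to 5 at 7 weeks, against 12.5, 14, 6.55, 8.58 and 14.2 CPM at 2 weeks. In control libraries it had 20.4, 14.9, 10, 18.8 and 26.2 CPM at 7 weeks, against 5.83, 6.49, 8.1, 19 and 18.7 CPM at 2 weeks. The ages overlapped in both kinds of pup, with control libraries 4 and 5 of 2 weeks inside the 7-week range. The log2 fold change was 0.57 ± 0.37 in periodontitis and 0.65 ± 0.37 in control pups and did not pass (SE, n = 5 per group, edgeR adjusted p = 0.182 and 0.14). Leaving out both libraries that stood apart gave 0.84 in control pups, which passed (edgeR adjusted p = 0.041).

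Of the heat shock pair, Hspa1b had 35.1, 28, 11.5, 7.6 and 6.71 CPM in periodontitis libraries 1 to 5 at 7 weeks, against 8.92, 10.1, 8.58, 15 and 14.3 CPM at 2 weeks. In control libraries it had 21.1, 38.7, 26.2, 14.8 and 11.1 CPM at 7 weeks, against 8.95, 10.8, 7.41, 10.7 and 7.16 CPM at 2 weeks. Control ages were apart, narrowly, and Hspa1b was called higher there, by 1.31 ± 0.40 on the log2 scale (SE, n = 5 per group, edgeR adjusted p = 0.00856). In periodontitis pups the ages overlapped, with a log2 fold change of 0.64 ± 0.40 (edgeR adjusted p = 0.16).

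Hspa1a had 15.1, 13.3, 4.99, 1.68 and 4.92 CPM in periodontitis libraries 1 to 5 at 7 weeks, against 7.98, 9.89, 8.32, 13.8 and 9.99 CPM at 2 weeks. In control libraries it had 8.06, 23.1, 13, 7.55 and 5.8 CPM at 7 weeks, against 8.68, 8.72, 7.23, 9.11 and 4.99 CPM at 2 weeks. The ages overlapped in both kinds of pup, and the 7-week libraries spread more widely than the 2-week ones. The log2 fold changes of -0.32 ± 0.43 in periodontitis and 0.56 ± 0.43 in control pups did not pass (SE, n = 5 per group, edgeR adjusted p = 0.52 and 0.268).

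The number of genes whose ages did not overlap was 2 of the 10 in periodontitis pups (Fosb and Junb) and 7 of the 10 in control pups (Fos, Fosb, Jun, Junb, Atf3, Ier2 and Hspa1b), all with the 7-week level higher. Of all tested genes, 24.9% in periodontitis and 22.5% in control pups did not overlap with the 7-week level higher, so the count in periodontitis pups is below the share of all genes. With library totals alone 5 of the 10 were higher without overlap in control pups, beside 8.35% of all tested genes. In periodontitis pups 2 were then higher and 1, Ier2, was lower, beside 8.56% and 53.8%. Ier2 was there at most 66 CPM at 7 weeks and at least 67.9 CPM at 2 weeks. Levels per kilobase used all annotated exons of a gene merged, for example 6243 bases for Fosb and 3311 for Dusp1. Their principal transcripts have 3782 and 1990 bases, so the order depends in part on the length taken. Per kilobase of exon, the order of mean levels in control pups at 7 weeks was Fos (154 CPM per kb), Jun (121), Junb (93.9), Atf3 (70.1), Ier2 (39.7), Dusp1 (11.4), Hspa1b (7.99), Egr1 (4.03), Hspa1a (3.88) and Fosb (3.8). In control pups at 2 weeks Jun led with 36 CPM per kb, followed by Fos with 31, Ier2 with 27.9, Junb with 26.8, Atf3 with 9.04, Dusp1 with 4.2, Hspa1b with 3.21, Hspa1a with 2.61, Egr1 with 2.59 and Fosb with 0.319. Neighbours in these orders that differed by less than the larger of their SDs were Fos and Jun, Dusp1 and Hspa1b, and Egr1, Hspa1a and Fosb at 7 weeks, and Jun, Fos, Ier2 and Junb, and Hspa1b, Hspa1a and Egr1 at 2 weeks. The periodontitis pups of 7 weeks had mean levels from 113 CPM per kb for Fos, 105 for Junb and 98 for Jun down to 3.54 for Fosb and 2.69 for Hspa1a. At 2 weeks they had 36.2 CPM per kb for Jun, 34 for Ier2, 26.2 for Junb and 14.4 for Fos, and 0.178 for Fosb at the low end.

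**Figure D2:**
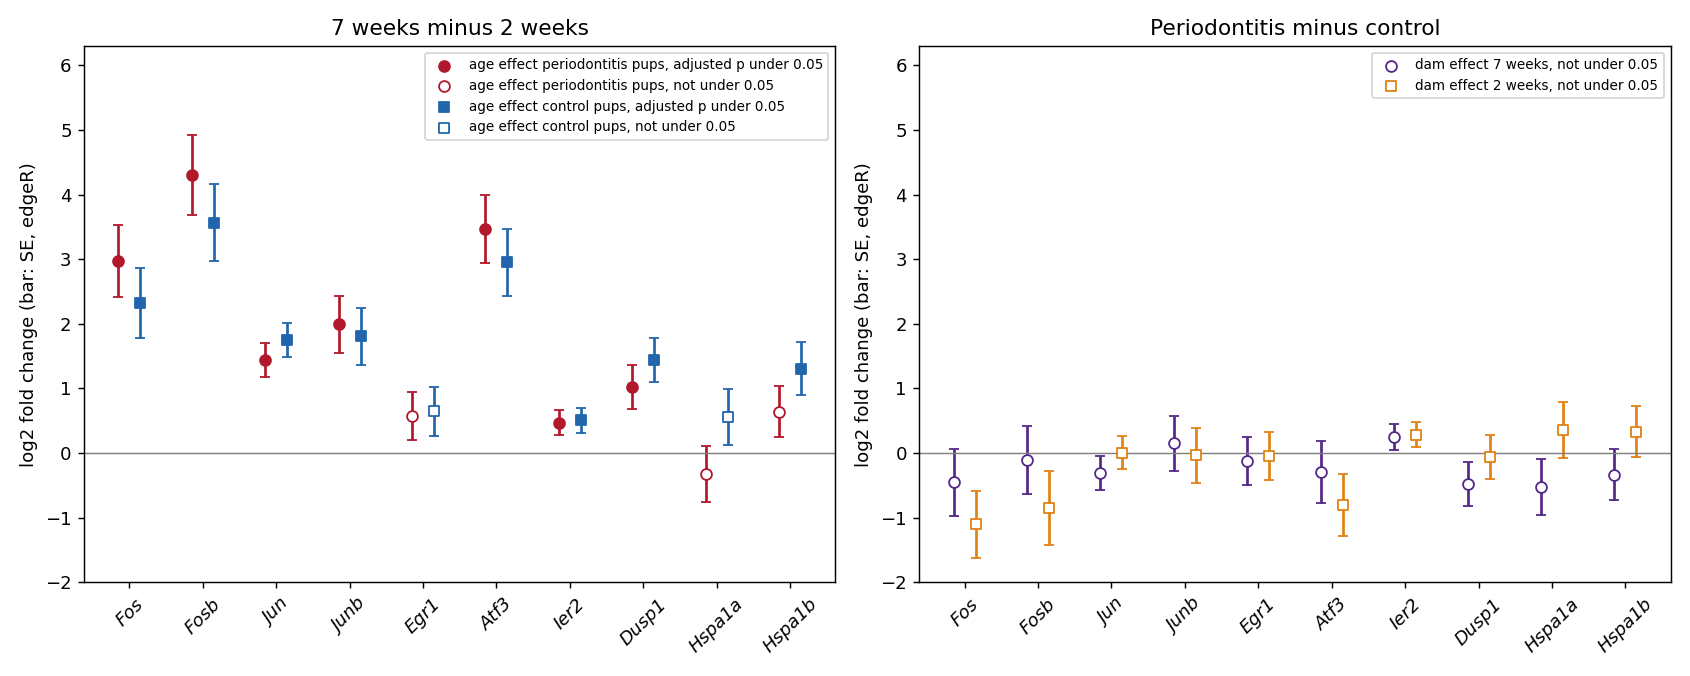
Log2 fold changes with SE (edgeR, 5 libraries per group) of 7 weeks minus 2 weeks (left) and of periodontitis minus control (right); filled symbols have an adjusted p under 0.05 over all genes tested and open symbols do not. On the left 7 of the 10 genes are filled in periodontitis and 8 in control pups, from 0.47 to 4.31, and on the right none is filled.

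The size of the age differences depends on the scaling. TMM factors were 0.72 to 0.99 in periodontitis and 0.71 to 0.86 in control libraries at 7 weeks, against 1.26 to 1.45 in periodontitis and 0.84 to 1.37 in control libraries at 2 weeks. With counts scaled to library totals alone, the median of all tested genes moved to -0.88 in periodontitis and -0.79 in control pups. Of the called genes, 16.1% were then higher in periodontitis pups and 14.3% in control pups, against 46% and 44.1% with TMM. Of all 17464 tested genes, 2009 were then called higher and 10444 lower in periodontitis pups, and 1652 higher and 9925 lower in control pups. Of the 10 genes, those still higher were Fos, Fosb, Jun, Junb and Atf3 in periodontitis pups, and Fos, Fosb, Jun, Atf3 and Dusp1 in control pups. Fosb was then at 3.45 and Atf3 at 2.62 in periodontitis pups, while Hspa1a was called lower, at -1.16 (edgeR adjusted p = 0.03). The median over the 10 genes was 0.39 in periodontitis and 0.90 in control pups. Direction thus turned with this scaling for Ier2 in both kinds of pup, for Hspa1a in control pups and for Egr1 and Hspa1b in periodontitis pups.

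Ratios within a library do not depend on its scaling. Egr1, the immediate early gene without an age call, was taken as the denominator after these values were seen, and the other 7 immediate early genes were compared with it in the 4 pairs of groups, 28 tests in all. Because of that choice, a ratio that differs between ages restates in part the age calls above. The log2 ratio of Fosb to Egr1 was 0.05 ± 1.12 in periodontitis pups at 7 weeks, against -3.31 ± 0.23 at 2 weeks, and 0.32 ± 0.52 in control pups at 7 weeks, against -2.55 ± 0.65 at 2 weeks (SD, n = 5 each). The ratios of Fos and of Atf3 to Egr1 were also higher at 7 weeks, by 2.61 and 2.72 in periodontitis pups and by 1.71 and 2.21 in control pups. For these 3 genes the ages did not overlap in either kind of pup. Each of the 6 comparisons had a two-sided exact permutation p of 0.00794, the smallest that 5 against 5 libraries can give (adjusted over the 28 tests, 0.0278). In CPM alone, 24.9% of all tested genes in periodontitis and 22.5% in control pups had ages without overlap and the 7-week level higher. The share of all genes whose ratio to Egr1 did so was not computed.

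The ratio of Junb to Egr1 was higher at 7 weeks in periodontitis pups, by 1.47 (two-sided exact permutation p = 0.00794, adjusted 0.0278), and differed by 1.56 in control pups, where 1 library was at -2.04 at 2 weeks (exact permutation p = 0.127, adjusted 0.254). Jun over Egr1 differed by 0.77 in periodontitis and 0.97 in control pups (exact permutation p = 0.0397 and 0.0476, adjusted 0.111 and 0.121). Dusp1 over Egr1 differed by 0.35 and 0.61 and Ier2 over Egr1 by -0.06 and -0.16 in periodontitis and control pups, with exact permutation p from 0.127 to 0.817.

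**Figure D3:**
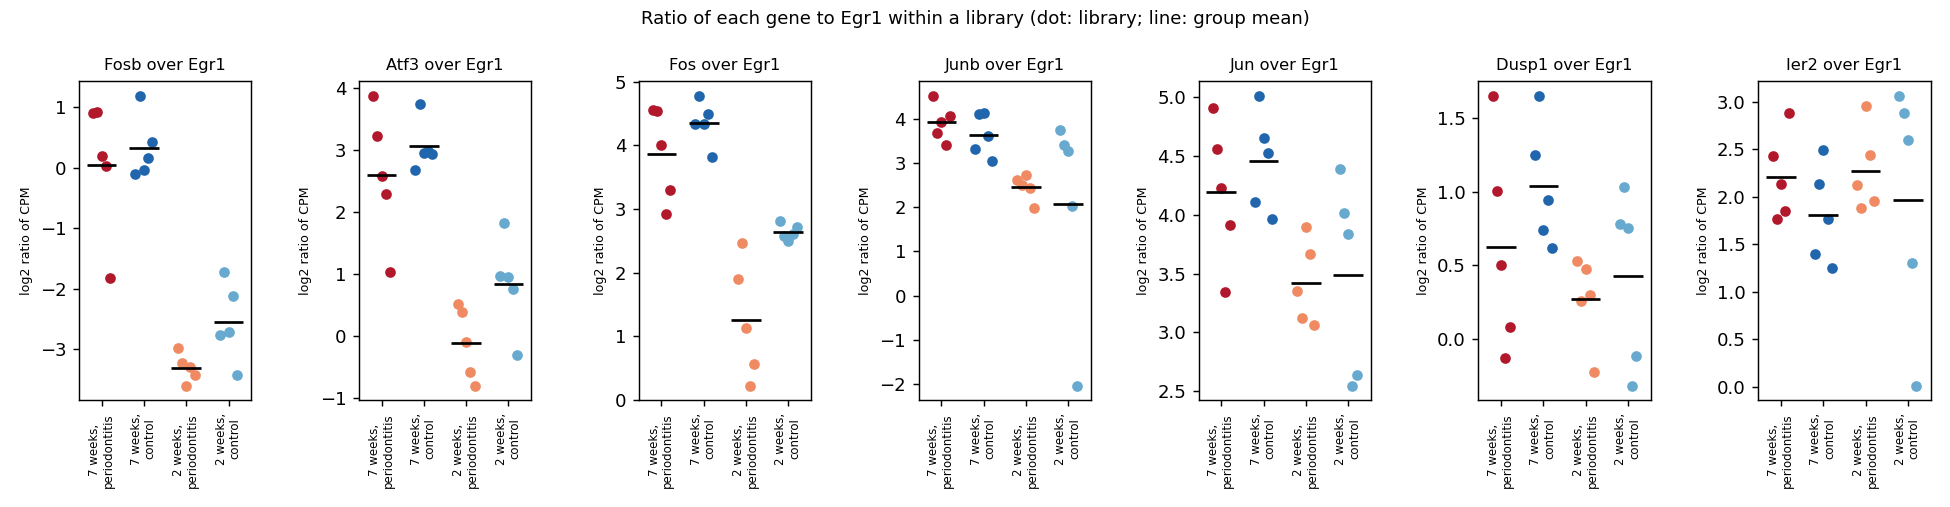
Log2 ratio of CPM of 7 immediate early genes to Egr1 within each library, by group from left to right: 7 weeks periodontitis, 7 weeks control, 2 weeks periodontitis, 2 weeks control (dots are libraries, lines are group means; the axes differ between panels). Fosb, Atf3 and Fos separate the ages in both kinds of pup, and the Fos ratio of the 2-week periodontitis libraries, 0.22 to 2.46, lies below that of the 2-week control libraries, 2.49 to 2.81.

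Cell type markers moved with age as well. The summed level of the 11 epithelial markers was 41137 to 108531 CPM in periodontitis and 64768 to 109781 CPM in control libraries at 7 weeks, against 36420 to 49717 CPM in periodontitis and 25332 to 40824 CPM in control libraries at 2 weeks. Of these 11 markers 8 were higher and 1 lower in periodontitis pups, and 9 higher and 2 lower in control pups. The other way went fibroblast (6 of 6 lower), endothelial (7 of 7), enteric neuron and glia (9 of 9), smooth muscle (7 of 8) and pancreatic acinar markers (12 of 12), in both kinds of pup. With library totals alone these 5 counts stayed as they were, but epithelial markers were 5 higher and 2 lower in periodontitis pups, and 4 higher and 2 lower in control pups. Summed fibroblast markers were 176 to 461 CPM in periodontitis and 190 to 284 CPM in control libraries at 7 weeks, against 1160 to 2496 CPM and 1411 to 3369 CPM at 2 weeks.

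Pancreatic acinar markers summed to 5.61 to 11.6 CPM in periodontitis and 5.8 to 10.4 CPM in control libraries at 7 weeks, with up to 10 of 12 at 0, against 172 to 1932 CPM and 220 to 1021 CPM at 2 weeks. Leukocyte markers were 4 higher and 7 lower of 13 tested in periodontitis pups, and 4 higher and 2 lower in control pups. Adipocyte markers were 3 higher and 2 lower of 7 in periodontitis pups, and 1 higher and 5 lower in control pups, and of 5 erythroid markers 4 and 3 were lower. With library totals alone leukocyte markers were 3 higher and 9 lower in periodontitis pups and 3 and 6 in control pups, adipocyte markers 3 higher and 2 lower in periodontitis pups and 0 and 6 in control pups, and 5 and 4 erythroid markers were lower. Xist was at most 0.658 CPM and the Y-linked Ddx3y at least 29.2 CPM in all 10 libraries of 7 weeks, while 6 of the 10 libraries of 2 weeks had more than 3 CPM of both. At 2 weeks periodontitis libraries 1 and 4 had Xist at 131 and 137 CPM, with Ddx3y at 0.0374 and 0.716 CPM. Periodontitis library 3 had Xist at 0.71 and Ddx3y at 35 CPM. The control libraries of 2 weeks had 16.6 to 92.2 CPM of Xist, and Ddx3y was 0 in control library 1 alone. The part of cell type makeup and of sex in the age differences, and of sex in the differences between the dams at 2 weeks, was not tested.

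The condition of the dam gave no call among the 10 genes. At 7 weeks 0 of the 10 passed, against 0.0115% of all tested genes (2 of 17464), and 0 of the 10 had an unadjusted p under 0.05 in edgeR. At 2 weeks 0 of the 10 passed, against 0.0286% of all tested genes (5 of 17464; 0.0172% higher and 0.0115% lower), and 1 had an unadjusted p under 0.05. DESeq2 also called 0 of the 10 at either age. The groups overlapped for all 10 genes at both ages. For comparison, groups without overlap were found at 7 weeks for 0.246% of tested genes with the periodontitis level higher and 0.281% with it lower, and at 2 weeks for 3.71% and 3.54%.

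At 7 weeks the log2 fold changes of periodontitis against control ran from -0.52 ± 0.43 for Hspa1a to 0.25 ± 0.20 for Ier2 (SE, n = 5 per group), with a median of -0.30 beside 0.02 over all tested genes. Negative values were found for 8 of the 10: Fos was at -0.45 ± 0.52, Dusp1 at -0.47 ± 0.34, Hspa1b at -0.33 ± 0.40, Jun at -0.31 ± 0.26 and Atf3 at -0.29 ± 0.48. Junb stood at 0.16 ± 0.43. Mean Fos was 265 ± 156 CPM in periodontitis and 363 ± 91.1 CPM in control pups (SD, n = 5 each). Without periodontitis library 5 of 7 weeks and control library 5 of 2 weeks, Atf3 was at 0.00, Fosb at 0.20 and Egr1 at 0.07, and still 0 of the 10 passed in edgeR.

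At 2 weeks Fos differed by -1.10 ± 0.52, with mean levels of 33.9 ± 28.2 CPM in periodontitis and 73 ± 42.8 CPM in control pups (SD, n = 5 each); its edgeR p was 0.0481 and did not pass (adjusted p = 0.344). Fosb was at -0.85 ± 0.57 and Atf3 at -0.80 ± 0.49 (adjusted p = 0.516 and 0.464). With 1 library left out Fos ran from -1.66 (without periodontitis library 2; edgeR adjusted p = 0.109, the smallest of the 3 genes) to -0.84 (without control library 5). Fosb ran from -1.06 (without control library 1) to -0.31 (without control library 4), and Atf3 from -1.05 (without periodontitis library 2) to -0.54 (without control library 4). The other 7 genes lay between -0.06 and 0.36, with Jun at 0.01 ± 0.26. The median of the 10 was -0.04, beside 0.02 over all tested genes. Fos was below 21 CPM in periodontitis libraries 3, 4 and 5 alone among the 10 libraries of 2 weeks.

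The periodontitis libraries of 2 weeks were not alike. Libraries 3, 4 and 5 were low together for some of the 10 genes: Fos was 10 to 20.9 CPM, Atf3 5.68 to 8.09 CPM and Junb 43.7 to 56.1 CPM. Libraries 1 and 2 lay in or near the control range for these 3 genes (46.9 and 77.4 CPM for Fos). Fosb, Dusp1 and, by little, Jun were also lower in libraries 3, 4 and 5 than in libraries 1 and 2. The remaining genes did not split in this way. Egr1 and Ier2 were highest in library 5, at 14.2 and 55 CPM. Hspa1a was highest in library 4, and Hspa1b in libraries 4 and 5, at 15 and 14.3 CPM. Krt20, a keratin of differentiated enterocytes, was picked out of the 11 epithelial markers after its values were seen. Krt20 followed Fos over the 20 libraries (r = 0.88 after removal of group means), and the other markers are not given singly. Its level was 655 and 600 CPM in the first and second of these libraries but 153 to 205 CPM in the other 3, while no control library was below 727 CPM. Its fold change between the dams was -1.24 ± 0.38 (edgeR adjusted p = 0.127). The summed epithelial markers did not split these libraries in that way, at 44648, 38464 and 49717 CPM in libraries 3, 4 and 5 and 43735 and 36420 CPM in libraries 1 and 2. The part of Krt20-expressing cells in the levels of Fos, Atf3 and Junb was not tested. Leaving out control library 5, which had the most Fos of its group, gave -0.84 for Fos and -0.33 for Junb, and 0 of the 10 passed in edgeR.

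Relative to Egr1 in the same library, Fos was lower in periodontitis pups at 2 weeks, with Egr1 chosen after its values were seen. The p-values of the ratios do not allow for that choice. Taken alone, Fos overlapped between the dams at 2 weeks and did not pass (edgeR adjusted p = 0.344). The log2 ratio of Fos to Egr1 was 1.26 ± 0.93 in periodontitis pups, against 2.64 ± 0.12 in control pups (SD, n = 5 each), and the groups did not overlap. In CPM alone, 3.54% of all tested genes were lower in periodontitis pups without overlap. For ratios to Egr1 that share was not computed. The difference of -1.38 had a two-sided exact permutation p of 0.00794, adjusted over the 28 tests to 0.0278, and ran from -1.68 to -1.12 with 1 library left out. Fos and Egr1 were high together in control libraries 4 and 5 and low together in libraries 1 to 3, so that their ratio was even in the control group. No other ratio differed between the dams after adjustment: at 2 weeks Fosb over Egr1 differed by -0.76 (exact permutation p = 0.0397, adjusted 0.111) and Atf3 over Egr1 by -0.96 (0.0556, adjusted 0.13). With 1 library left out, Atf3 over Egr1 ran from -1.24 to -0.71. It was at -1.24 without control library 5 (exact permutation p = 0.0159, not adjusted), and the largest p of these was 0.111. For Fosb over Egr1 the largest was 0.0794. At 7 weeks Fos over Egr1 differed by -0.49 (exact permutation p = 0.23, adjusted 0.403).

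Whether the effect of the dam differed between the ages was tested as an interaction. Of the 10 genes 0 passed in edgeR, 0 had an unadjusted p under 0.05 and DESeq2 called 0, against 0.0229% of all tested genes called in edgeR (4 of 17464). Estimates, as the 7-week minus the 2-week effect, ran from -0.89 ± 0.61 for Hspa1a and -0.66 ± 0.56 for Hspa1b to 0.65 ± 0.73 for Fos and 0.74 ± 0.78 for Fosb (SE).

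**Figure D4:**
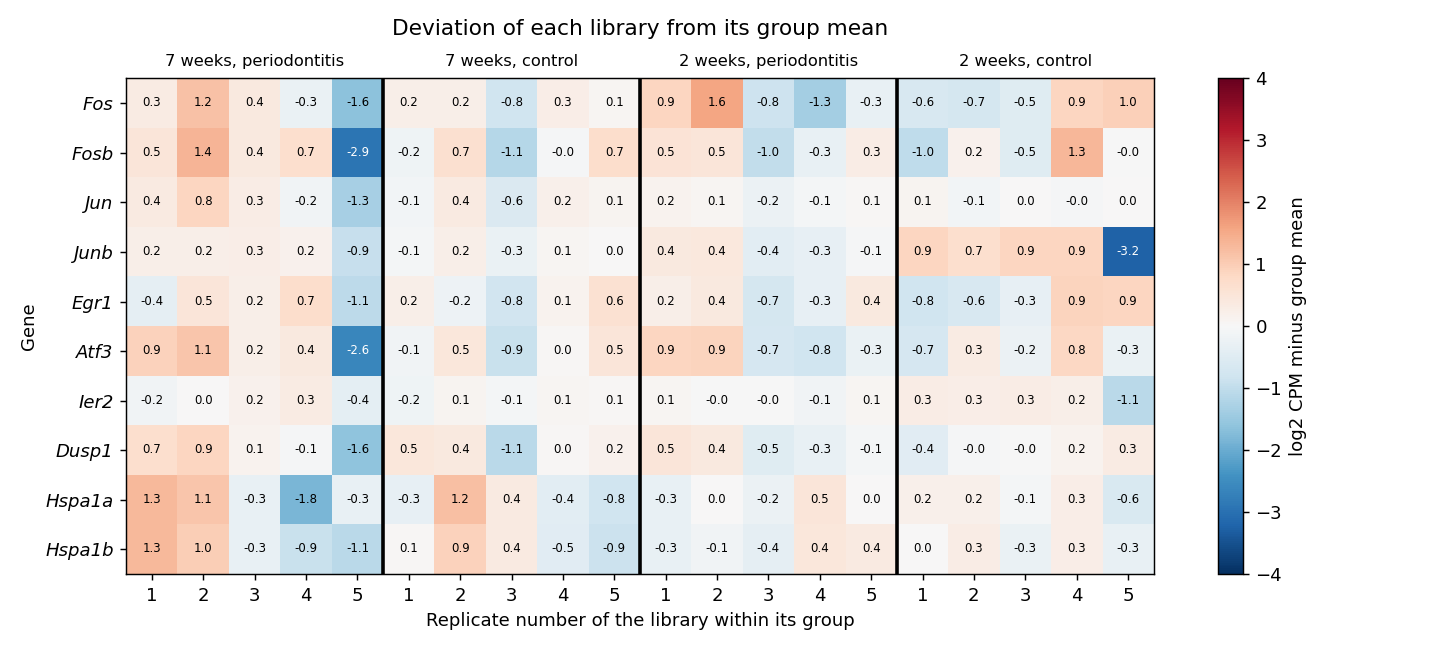
Log2 CPM of each gene in each library minus the mean of its group, with groups from left to right as 7 weeks periodontitis, 7 weeks control, 2 weeks periodontitis, 2 weeks control (rows are genes, columns are libraries by replicate number; red is above and blue below the group mean). Periodontitis library 5 at 7 weeks is below its group mean for all 10 genes, and control library 3 at 7 weeks is below it for the 8 immediate early genes but above it for Hspa1a and Hspa1b.

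Within groups, Fos varied with Jun and Dusp1 at 7 weeks. Correlations were computed over the 10 libraries of an age after removing group means, for Fos with each other gene and for Hspa1a with Hspa1b, 20 in all, with permutation within groups. At 7 weeks Fos and Jun had Pearson's r = 0.979 (exact permutation p = 0.00146, adjusted 0.0111) and Spearman's rho = 0.879 (exact permutation p = 0.0091, adjusted 0.0606). For Fos and Dusp1 r was 0.948 (exact permutation p = 0.00222, adjusted 0.0111) and rho 0.77 (0.0344, adjusted 0.0984). The 2 libraries farthest from the median were periodontitis library 5 and control library 3. Without them r was 0.907 for Jun and 0.774 for Dusp1. Here and below, values without the 2 farthest libraries keep the group means computed with them.

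For Fos with Atf3, Fosb and Junb r was 0.914, 0.905 and 0.880 (exact permutation adjusted p = 0.0244, 0.0247 and 0.0181), with rho of 0.612, 0.442 and 0.733 (exact permutation p = 0.104, 0.249 and 0.0188). Without those 2 libraries r was 0.554, 0.478 and 0.329, so these relations rest on them. Fos with Egr1 had r = 0.695 (exact permutation adjusted p = 0.0752, rho = 0.321, p = 0.44) and -0.105 without them, and Fos with Ier2 had r = 0.495 (adjusted p = 0.357, rho = 0.2, p = 0.633) and -0.348 without them.

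At 2 weeks Fos followed Dusp1 with r = 0.864 (exact permutation p = 0.00667, adjusted 0.0222; rho = 0.855, p = 0.0135, adjusted 0.0674), Egr1 with r = 0.783 (p = 0.0111, adjusted 0.0247; rho = 0.685, p = 0.021) and Atf3 with r = 0.779 (p = 0.024, adjusted 0.0481; rho = 0.758, p = 0.0502). Without the 2 farthest libraries, periodontitis library 2 and control library 5, r was 0.812, 0.765 and 0.875. Fos with Junb had r = -0.176 (exact permutation p = 0.792; rho = -0.0061, p = 1), and 0.863 without control library 5, in which Fos was high and Junb at 4.51 CPM. The 0.863 used group means taken without control library 5. Leaving out both farthest libraries gave 0.444, but with group means that still held control library 5. The 2 values can therefore not be compared. Fos with Fosb and Jun had r of 0.666 and 0.515 (exact permutation adjusted p = 0.0726 and 0.283; rho = 0.624 and 0.6, p = 0.0654 and 0.122), and Fos with Ier2 had r = -0.303 (adjusted p = 0.418; rho = -0.139, p = 0.638).

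For the Hsp70 pair, reads that fit both genes were divided between them, so their counts are not independent, and the part of that division in their correlation was not tested. Hspa1a and Hspa1b had r = 0.901 at 7 weeks (exact permutation p = 0.00174, adjusted 0.0111; rho = 0.842, adjusted 0.034) and 0.820 at 2 weeks (p = 0.000417, adjusted 0.00833; rho = 0.867, adjusted 0.00972), and 0.910 and 0.794 without the 2 farthest libraries. Fos and Hspa1a had r = 0.342 at 7 weeks and -0.461 at 2 weeks (exact permutation adjusted p = 0.505 and 0.295; rho = 0.382 and -0.491, p = 0.332 and 0.179). Fos and Hspa1b had r = 0.544 and -0.371 (adjusted p = 0.283 and 0.405; rho = 0.6 and -0.321, p = 0.166 and 0.446). Control library 3 of 7 weeks, the lowest of its group for Fos, was the second highest for both Hsp70 genes.

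Among the other genes of the table, those most like Fos over the 20 libraries after removal of group means were Arl14 (r = 0.92), Fam3b (0.92), Aspa (0.91), Arhgap42 (0.90) and Phlpp2 (0.89), of 12167 genes compared. Most like Hspa1b were Tirap (r = 0.87), Ankrd40 (0.82), Tsc22d3 (0.81), Atn1 (0.81) and Txnip (0.80). These correlations are descriptions of libraries that differ in makeup. Tsc22d3, also known as GILZ, is a glucocorticoid-induced gene, and Tirap encodes an adaptor of Toll-like receptors.

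In periodontitis library 5 at 7 weeks all 10 genes were below the median of the other 4 libraries of its group, by 0.49 (Ier2) to 3.51 (Fosb) on the log2 scale; the median of all tested genes was 0.07 above. Fosb lay at the 0.344th and Atf3 at the 0.43rd percentile of all genes for this difference. There Krt20, picked as told above, was 1363 CPM, against 2884 to 4888 CPM in the other 4 libraries. Its summed epithelial markers were the lowest of the group, 41137 CPM against 90862 to 108531 CPM. Control library 3 at 7 weeks likewise had the lowest summed epithelial markers of its group, 64768 CPM against 85922 to 109781 CPM in the other 4. In control library 5 at 2 weeks Junb was 4.10 and Ier2 1.37 below the median of the other 4, while Fos and Egr1 were above it, Egr1 by 1.36. For this difference Junb lay at the 1.04th percentile of all genes, but Ier2 only at the 23.3rd. Fos and Egr1 lay at the 92.5th and 90.4th. Whether the makeup or the quality of these libraries accounts for the levels was not tested.

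Hspa1a and Hspa1b are neighbours whose coding sequences differ at 11 of 1929 aligned positions (99.4% identical). The 250 bases printed above differ at 3 positions (98.8% identical), while the 3' untranslated regions are 47.3% identical. RSEM divides reads that fit both genes, so the level of each is uncertain. Hspa1a took 30.6 ± 8.59% of the summed counts of the pair in periodontitis pups at 7 weeks, against 47 ± 3.44% at 2 weeks (SD, n = 5 each). In control pups it took 33.3 ± 3.55% at 7 weeks, against 46.1 ± 3.47% at 2 weeks. The share was lower at 7 weeks in both kinds of pup (two-sided exact permutation p = 0.0159 in periodontitis and 0.00794 in control pups, 0.00794 being the smallest possible; adjusted over 4 tests 0.0317 for both).

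**Figure D5:**
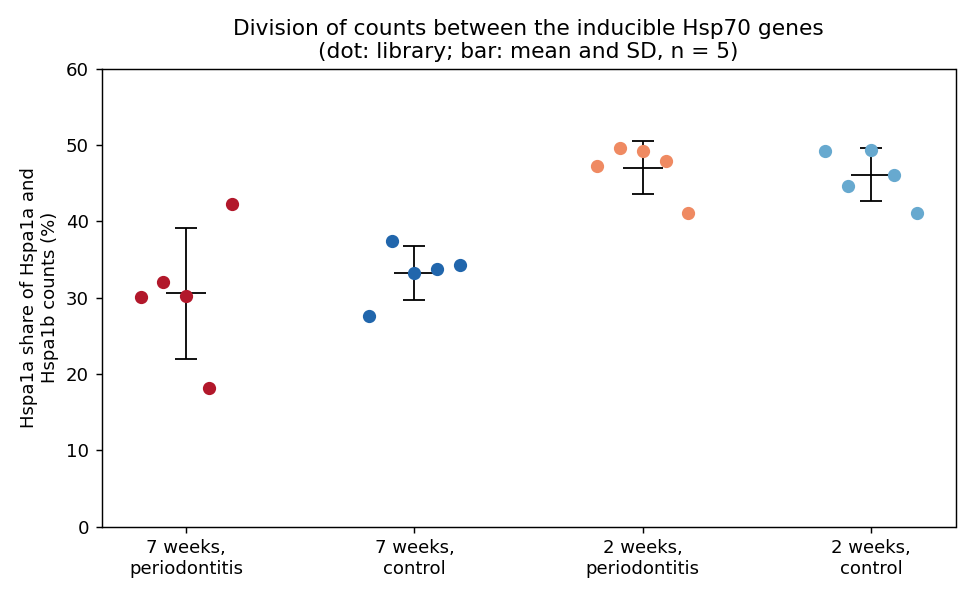
Share of Hspa1a in the summed counts of Hspa1a and Hspa1b (percent) in each library, by group from left to right: 7 weeks periodontitis, 7 weeks control, 2 weeks periodontitis, 2 weeks control (dots are libraries, bars are mean and SD, n = 5). The control libraries of 7 weeks, 27.6 to 37.4%, all lie below those of 2 weeks, 41.1 to 49.4%, and the periodontitis libraries of 7 weeks spread from 18.1 to 42.3%.

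Between the dams this share differed by -2.70 percentage points at 7 weeks and 0.94 at 2 weeks (exact permutation p = 0.571 and 0.651). With the counts of both genes summed, which does not depend on how reads were divided, the 7-week level differed by a log2 fold change of 0.27 ± 0.40 in periodontitis pups (edgeR adjusted p = 0.563) and was higher by 1.01 ± 0.40 in control pups (adjusted p = 0.0347; SE, n = 5 per group). The summed pair differed between the dams by -0.40 ± 0.40 at 7 weeks and 0.35 ± 0.40 at 2 weeks (adjusted p = 1 and 0.706).

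The wider families did not move as one with age. Their counts are to be read beside those of all 17464 tested genes. Of these, 30.4% were called higher and 35.7% lower in periodontitis pups, and 27.1% and 34.4% in control pups. With library totals alone, 2009 were higher and 10444 lower in periodontitis pups, and 1652 higher and 9925 lower in control pups. Of 14 other AP-1 and bZIP genes 7 were higher and 2 lower in each kind of pup. Fosl2, a Fos relative, was higher by 2.06 ± 0.23 in periodontitis and 1.71 ± 0.22 in control pups, Batf2 by 4.06 ± 0.33 and 3.42 ± 0.33, and Mafk by 1.23 ± 0.19 in each (log2 fold change ± SE, n = 5 per group). Atf7 was lower, at -0.75 ± 0.12 and -0.59 ± 0.12. The 4 named genes here and below are those with the smallest p of their list in control pups. All 4 had an edgeR adjusted p of at most 0.000336. With library totals alone the counts were 4 higher and 6 lower in periodontitis and 4 higher and 3 lower in control pups; Mafk was then not called in periodontitis pups (0.40, adjusted p = 0.0733).

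Of 21 other immediate early transcription factors tested, 8 were higher and 5 lower in periodontitis pups, and 9 higher and 7 lower in control pups. Nfkbiz, a regulator of NF-kB targets, was higher by 2.06 ± 0.28 in periodontitis and 1.92 ± 0.28 in control pups, and the basic leucine zipper repressor Nfil3 by 0.79 ± 0.26 and 1.64 ± 0.26. Klf2, a transcription factor of endothelium and lymphocytes, was lower, at -2.09 ± 0.22 and -1.49 ± 0.22, and Snai1, a repressor of E-cadherin, was lower in both kinds of pup, at -2.22 ± 0.31 in control pups. Nr4a1, an orphan nuclear receptor that is a classic immediate early gene, was named after its values were seen: it was lower at 7 weeks, at -1.95 ± 0.35 in periodontitis and -1.42 ± 0.34 in control pups (edgeR adjusted p = 8.03e-05 and 0.00138). Scaled to totals, 4 were higher and 9 lower in periodontitis pups, and 4 higher and 8 lower in control pups.

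Of 35 other immediate early effectors 18 were higher and 6 lower in periodontitis pups, and 16 higher and 5 lower in control pups. Among them the antiproliferative gene Btg1 was higher by 1.86 ± 0.18 in periodontitis and 1.69 ± 0.18 in control pups, Trib1 by 1.71 ± 0.24 and 1.76 ± 0.24, and the NF-kB inhibitor Nfkbia by 1.76 ± 0.22 and 1.48 ± 0.22, while the kinase gene Plk2 was lower, at -1.81 ± 0.22 and -1.53 ± 0.22. Scaling to totals gave 11 higher and 12 lower in periodontitis pups, and 9 higher and 12 lower in control pups. Of 15 MAP kinase phosphatases and ERK feedback genes 4 were higher and 7 lower in periodontitis pups, and 4 higher and 5 lower in control pups. The phosphatase genes Dusp6 and Dusp16 were higher by 2.62 ± 0.32 and 1.26 ± 0.15 in periodontitis pups and by 2.66 ± 0.32 and 0.98 ± 0.14 in control pups. The ERK pathway inhibitors Spry1 and Spred1 were lower, at -2.10 ± 0.27 and -1.42 ± 0.24 in periodontitis and -2.06 ± 0.27 and -1.71 ± 0.24 in control pups. Scaling to totals gave 3 higher and 10 lower in periodontitis pups, and 2 higher and 8 lower in control pups.

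Upstream of these genes, 10 of 21 kinases and transcription factors were higher and 3 lower in periodontitis pups, and 7 higher and 3 lower in control pups. The ERK kinase gene Map2k1 was higher by 1.23 ± 0.16 in periodontitis and 1.05 ± 0.16 in control pups and the ternary complex factor Elk4 by 1.04 ± 0.17 and 1.00 ± 0.17, while its relative Elk3 was lower, at -2.17 ± 0.22 and -1.65 ± 0.21. Mapk3, which encodes ERK1, was higher by 0.64 ± 0.18 and 0.75 ± 0.18, a direction that turned in periodontitis pups with library totals alone (-0.15). Scaled to totals, 3 were higher and 13 lower in periodontitis pups, and 2 higher and 10 lower in control pups.

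Of 32 other chaperones and co-chaperones 13 were higher and 7 lower in each kind of pup. Bag3, an Hsp70 partner that is a heat shock factor target, was higher by 1.51 ± 0.23 in periodontitis and 1.38 ± 0.23 in control pups, Dnajb2 by 1.09 ± 0.25 and 1.64 ± 0.26 and Ahsa2 by 0.98 ± 0.13 and 1.05 ± 0.13. Hspa2, a relative of the Hsp70 pair that is best known from testis, was lower, at -2.18 ± 0.37 and -2.35 ± 0.38. The counts with library totals alone were 1 higher and 17 lower in periodontitis and 4 higher and 13 lower in control pups. Of 5 heat shock factor genes and their binding protein 2 were higher and 1 lower in periodontitis pups, and 1 higher and 1 lower in control pups (1 and 3, and 1 and 2, with library totals alone). Hsf5 was higher by 4.56 ± 0.66 in periodontitis and 3.33 ± 0.64 in control pups, and Hsf2 was lower, at -1.23 ± 0.24 and -1.22 ± 0.24. Hsf1 itself was at -0.27 ± 0.17 and -0.14 ± 0.17 and did not pass (edgeR adjusted p = 0.167 and 0.478). With library totals alone it was called lower in both, as were most of all tested genes.

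Genes of the unfolded protein and integrated stress responses, which also induce Atf3, were higher for 11 and lower for 4 of 20 in periodontitis pups, and higher for 9 and lower for 3 in control pups. Trib3 was higher by 3.28 ± 0.43 in periodontitis and 2.61 ± 0.42 in control pups, and Asns, which makes asparagine, was lower, at -1.55 ± 0.24 and -1.25 ± 0.24. Scaled to totals, 1 was higher and 7 lower in periodontitis pups, and 1 higher and 6 lower in control pups. Of 10 glucocorticoid targets 5 were higher and 0 lower in periodontitis pups, and 5 higher and 3 lower in control pups (with library totals alone 4 and 2, and 3 and 4). Of 15 clock genes 7 were higher and 6 lower in periodontitis pups, and 5 higher and 1 lower in control pups (4 and 8, and 5 and 5). The time of day of collection is not given in the labels. Between the dams, 0 genes of any of these lists passed at 7 weeks, at 2 weeks or in the interaction in edgeR; the smallest adjusted p among them at 2 weeks was 0.0541, for the epidermal growth factor family ligand Ereg (-1.79 ± 0.38).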

How the data were processed

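Small intestinal polyA RNA of mouse pups was sequenced in 20 libraries, grouped by the labels' titles. The authors deposited expected counts for each gene from RSEM, and all values were whole (rounding changed 0 of them). Per the submitters' processing notes, they used cutadapt 4.8, FastQC 0.11.8, STAR 2.7.8a and RSEM 1.3.3, with builds GRCh38 and GRCm38 both named. The annotation release and the strand setting are not given in the sources used here. Of 55491 rows, 4 name no gene and hold 0 counts. RSEM assigns reads that fit several genes by estimation, which bears on Hspa1a and Hspa1b.

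Counts were analysed with edgeR 4.0.16 in R 4.3.3: filterByExpr on the 4 groups (17464 genes), TMM, robust quasi-likelihood fit of 4 group means to all 20 libraries (16 residual degrees of freedom), two-sided, Benjamini-Hochberg over all genes tested, threshold 0.05. SEs were derived from each log2 fold change and its F statistic. Log2 CPM used a prior count of 2. DESeq2 1.42.0 was an alternative. Ratios, shares and correlations were tested by exact permutation (scipy 1.17.1). The procedure was tested on simulated data.

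The 10 genes and the lists of related genes and markers were chosen with earlier results of these data known. All 10 genes are given; of each other list up to 4 genes with the smallest p are named, and Nr4a1, Krt20 and Ereg were named after their values were seen. Genes most like Fos and Hspa1b are the 5 with the highest r among named genes (no Gm or Rik symbols) with an average log2 CPM of at least 1. Coordinates are from GENCODE M21 and promoter sequences from RefSeq (GRCm38.p6). Replicate numbers did not pair the libraries.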

Additional observations from a re-analysis of the deposited data

Results flagged for a closer look

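In 40 sets of 5 libraries (10 genes in 4 groups), a library was taken to stand apart where its gap to the nearest other library, divided by the range of its group, was above Dixon's critical value of 0.71; chance flags about 1 in 20 sets, which is 2 of 40, and 4 were found. Control library 3 at 7 weeks had Fos at 204 CPM, against 369 to 422 CPM in the other 4. Periodontitis library 5 at 7 weeks had Junb at 122 CPM, against 261 to 275 CPM. Control library 5 at 2 weeks had Junb at 4.51 CPM, against 68.7 to 79.1 CPM, and Ier2 at 18.8 CPM, against 46.9 to 49.2 CPM. These are the 2 libraries with the lowest summed epithelial markers of the 7-week groups and the library with 29.4% mitochondrial counts; the part of either in the levels was not tested.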

How the results depend on the processing

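The limits are 5 libraries per group, an unknown number of animals per library and the libraries that stood apart. With 1 library left out, 554 of 600 fold changes of the 10 genes kept direction and call, 12 lost the call and 34 changed sign; with the other settings 468 of 500 kept both. No gene of the 10 was called between the dams, or in the interaction, under any setting run in edgeR or DESeq2.

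Genes called at 2 weeks between the dams (5 in edgeR) were 598 in DESeq2, 361 without both libraries 5, 17 without robust estimation and 0 with DESeq2 size factors (2628 at an unadjusted p under 0.05), with the groups fitted alone (2159) and with the replicate block (2015). At 7 weeks (2) they were 27 in DESeq2, 32 without both libraries 5, and 0 with the groups alone (383), the block (500) and library totals (575). In the interaction (4) they were 65, 159 and 0 for DESeq2, without both libraries 5 and for the block (1139). With 1 library left out they ran from 0 (1660 to 2833) to 387 at 2 weeks (without periodontitis library 2), from 0 (492 to 675) to 15 at 7 weeks (without periodontitis library 5) and from 1 to 26 in the interaction.

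With library totals alone 5 of the 10 genes, not 8, were called higher between ages in control pups (1652 of all 17464 genes were), and 1 of the 10, Ier2, did not overlap between the dams at 2 weeks, higher in periodontitis pups, as for 4.7% of all tested genes. Values that changed sign with library totals were Junb 0.0023, Egr1 0.16 and Dusp1 0.10 between the dams at 2 weeks, Ier2 -0.23 and Hspa1a -0.15 between ages in control pups, and Egr1 -0.26, Ier2 -0.33 and Hspa1b -0.21 in periodontitis pups. Summing the pair gave Hspa1a 0.27 there. At 2 weeks Jun was -0.016 with DESeq2 size factors, -0.0113 in DESeq2, -0.0025 with a filter of CPM above 1 and -0.0023 with the block. The block also gave Junb 0.12 and Egr1 0.0329 at 2 weeks and Junb -0.0564 in the interaction. Without both libraries 5, Egr1 was 0.17 and Dusp1 0.0234 at 2 weeks, Fosb 0.20, Egr1 0.0718 and Atf3 0.00051 at 7 weeks and Ier2 0.24 in the interaction; correlations with Fos that changed sign were Ier2 at 7 weeks (r = -0.173), Junb (0.863) and Ier2 (0.356) at 2 weeks.

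With 1 library left out, ranges at 2 weeks were -0.0294 to 0.0621 for Jun, -0.33 to 0.069 for Junb, -0.22 to 0.22 for Egr1 and -0.19 to 0.0522 for Dusp1; at 7 weeks -0.44 to 0.20 for Fosb and -0.31 to 0.0736 for Egr1; in the interaction -0.34 to 0.11 for Egr1 and -0.13 to 0.15 for Ier2. Ratios to Egr1 ran from -0.30 to 0.16 for Jun, -0.66 to 0.79 for Junb and -0.19 to 0.57 for Ier2 between the dams at 2 weeks, from -0.50 to 0.19 for Fosb at 7 weeks, and for Ier2 between ages from -0.65 to 0.11 in control and -0.22 to 0.11 in periodontitis pups. The ratios of Fos, Fosb and Atf3 to Egr1 between ages kept direction each time, with a two-sided exact permutation p of at most 0.0159; for the Hspa1a share it was at most 0.0317.

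Libraries with the same replicate number did not deviate together (correlations from -0.397 to 0.288); with the block 6 of the 10 genes, not 7, were called between ages in periodontitis pups, Ier2 being lost (adjusted p = 0.059 in edgeR).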
